A study of Rattus norvegicus with 939 samples.

Results

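Sulindac, tenidap and nimesulide are 3 older nonsteroidal anti-inflammatory drugs (NSAIDs) that were among the 125 compounds profiled in primary rat hepatocytes, liver cells freshly isolated and then kept in culture. The treated arrays were those whose compound label names one of these drugs at either exposure time, and each was set against the vehicle arrays whose description lists that drug. This gave 18 treated arrays out of the 939 arrays of the series. Sulindac was given at 750 µM, tenidap at 41 µM and nimesulide at 61.7 µM, each for 0.67 d and for 1 d with 3 arrays at each time, and every culture, treated or control, received the vehicle DMSO. Sulindac had 12 control arrays at each time, tenidap 9 and nimesulide 4, and the 3 control sets shared 0 arrays. The labels give no strain, age or donor of the hepatocytes. The titles of the controls carry a dated code that a 0.67 d and a 1 d array share, those of the treated arrays carry none, and nothing says that replicate arrays came from separate cultures, so the p-values measure only the spread between arrays. The doses differ between the drugs, so their values are set side by side below and no difference between the drugs was tested.

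NSAIDs block the cyclooxygenases, the enzymes (encoded by Ptgs1 and Ptgs2) that turn arachidonic acid released from membranes into prostaglandins, which signal pain, fever and inflammation. Sulindac is an indene acetic acid prodrug whose sulfide metabolite is the active inhibitor, tenidap is an oxindole, and nimesulide is a sulfonanilide that prefers cyclooxygenase-2. The hepatocyte oxidizes and conjugates such drugs, makes bile acids, glucose and plasma proteins, and carries receptors such as the aryl hydrocarbon receptor (AhR) that raise drug-metabolizing genes when a foreign compound binds them.

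Levels are deposited values on a log2 scale from robust multi-array averaging (RMA), so a difference of 1 is a 2-fold change. A gene was called when the Benjamini-Hochberg adjusted p of limma, a linear model with a moderated test, was 0.01 or less and its change was 1.5-fold or more. The fit for each drug held both exposure times, with time as a covariate. Of 14218 genes, 321 (2.26%) were higher and 391 (2.75%) lower with sulindac. With tenidap 264 (1.86%) were higher and 447 (3.14%) lower. With nimesulide 1043 (7.34%) were higher and 1387 (9.76%) lower. All called genes had the same sign at both times. The median change over all genes was 0.02, 0.01 and 0.00 on the log2 scale for sulindac, tenidap and nimesulide. Centring each array on its median turned the share of higher calls from 45.1% to 55.7% with sulindac, from 37.1% to 45.3% with tenidap and from 42.9% to 51.8% with nimesulide.

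The arrays read as hepatocytes by their markers. The group means of the 13 measured hepatocyte markers lay at percentiles 96.7 to 98.9 of all genes, but their level moved with treatment. They averaged 12.1 to 12.42 on the sulindac treated arrays against 11.67 to 12.14 on the controls, 11.48 to 11.77 against 11.82 to 12.04 with tenidap and 11.19 to 11.55 against 11.75 to 12.13 with nimesulide, so the groups overlapped with sulindac alone. Of the 13, 4 were called higher with sulindac, and 2 and 4 lower with tenidap and nimesulide. Their median change was 0.04, -0.12 and -0.33 with sulindac, tenidap and nimesulide, beside 0.02, 0.01 and 0.00 over all genes. The 10 measured macrophage markers (such as Cd68, C1qa and Csf1r) averaged 5.19 to 5.46 on the sulindac and 5.37 to 5.61 on the tenidap treated arrays. On the nimesulide treated arrays they averaged 7.88 to 8.91, and on its controls 6.09 to 8.41. Replicates 7 and 8 of the sulindac controls (6.39 to 7.69) and replicate 3a at 1 d and 3b at 0.67 d of the tenidap controls (6.23 and 6.16) stood above the other controls of those drugs. In RNA of a whole culture, more cells of a type and more RNA per cell cannot be told apart. Cd68, a lysosomal macrophage protein, was the only marker called, higher with tenidap (0.67 ± 0.13) and nimesulide (1.25 ± 0.23). Of the 10 endothelial markers 0 were called, of the 12 stellate cell markers 1, Reln, which fell by 1.00 ± 0.21 with sulindac, and of the 7 bile duct markers 1, Cldn4, higher with nimesulide. Without the controls that stood apart in macrophage markers, which for nimesulide leaves its later control set, the calls numbered 679 for sulindac, 673 for tenidap and 2208 for nimesulide, against 712, 711 and 2430 with all controls.

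**Figure D1:**
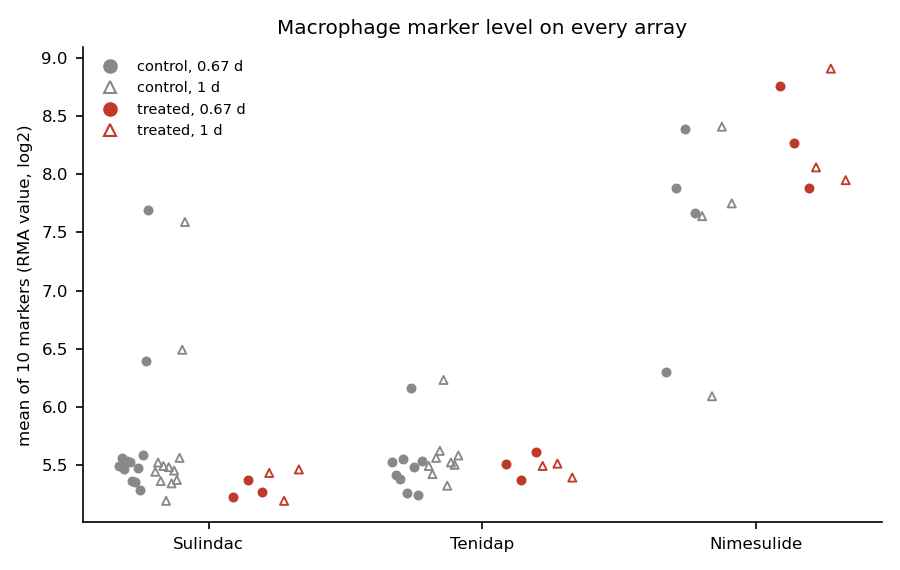
Mean RMA value (log2) of the 10 macrophage markers on each array, with control arrays in grey and treated arrays in red, circles for 0.67 d and triangles for 1 d. The nimesulide arrays lie between 6.09 and 8.91, the sulindac treated arrays between 5.19 and 5.46 and the tenidap treated arrays between 5.37 and 5.61, and a few sulindac and tenidap controls lie above 6.

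Genes of the drugs' own pathway were mostly not called, as was so for all genes. Of 34 genes for prostanoid and leukotriene synthesis, breakdown and reception, 2 were higher and 1 lower with sulindac, 0 and 3 with tenidap, and 1 and 4 with nimesulide. Over all genes 2.26% were higher and 2.75% lower with sulindac, 1.86% and 3.14% with tenidap, and 7.34% and 9.76% with nimesulide. The list's median change was 0.03, 0.01 and 0.02, beside 0.02, 0.01 and 0.00 over all genes. Ptgs1, the constitutive cyclooxygenase, lay between 4.65 and 5.44 on all treated arrays and between 4.65 and 5.38 on all controls, and its change was 0.04 ± 0.07 (SE) with sulindac, 0.01 ± 0.08 with tenidap and -0.07 ± 0.08 with nimesulide. Ptgs2, the inducible form, read 3.72, 3.6 and 3.5 at 0.67 d and 3.71, 4.45 and 4.06 at 1 d of nimesulide, against 2.98 to 3.33 on its controls. All 6 treated arrays were above all 8 controls, a rise of 0.66 ± 0.12 (adjusted p 0.000235). It fell below the 1.5-fold bound without replicate 1b at 1 d (0.55), with hybridization day as a block (0.46) and with all 50 controls of the 3 drugs (0.53). With tenidap Ptgs2 changed by 0.56 ± 0.17 (adjusted p 0.0163) and with sulindac by -0.33 ± 0.23, neither called. Ptgs1 on every array, and Ptgs2 on the nimesulide arrays and their controls, lay below the array medians (5.50 to 5.624). Levels this low limit what a small or absent change can show.

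Mgll, the monoacylglycerol lipase that frees arachidonic acid from 2-arachidonoylglycerol, read 6.1, 6.02, 5.9, 6.27, 6.17 and 6.08 with nimesulide against 8.05 to 8.99 on the controls, so the groups did not overlap. It fell by 2.53 ± 0.11 on the log2 scale with nimesulide and by 1.56 ± 0.22 with tenidap, and was 1.12 ± 0.23 higher with sulindac, a call lost against the earlier of the 2 control sets alone (1.23) and with hybridization day as a block (0.81). Pla2g12a, a secreted phospholipase A2, was higher with sulindac on all 6 arrays (9.5 to 10.69, controls 8.26 to 8.95), a change of 1.61 ± 0.09. It changed by -0.13 ± 0.10 with tenidap and -0.31 ± 0.10 with nimesulide, neither called. Slco2a1, the prostaglandin transporter that takes prostaglandins up from outside the cell, fell by 1.87 ± 0.15 with nimesulide and 0.96 ± 0.18 with tenidap, and its change of -0.35 ± 0.21 with sulindac was not called. The fall with tenidap did not hold on every hybridization day shared with controls. Ptgr2, a prostaglandin reductase, fell by 0.95 ± 0.10 with nimesulide, below all 8 controls on all 6 arrays. Plaat3, a phospholipase and acyltransferase, fell with all 3 drugs, by 1.24 ± 0.23, 0.84 ± 0.19 and 0.96 ± 0.14 with sulindac, tenidap and nimesulide. Leaving out replicate 2 of tenidap at 0.67 d ended its tenidap call (-0.67).

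Among AhR targets, 4 of 7 measured members were higher with sulindac, 3 with tenidap and 2 with nimesulide, and 1 was lower with nimesulide. Cyp1a1, the P450 that oxidizes polycyclic aromatics and the classic AhR target, read 13.64, 13.23 and 13.22 at 0.67 d and 13.3, 13.37 and 13.03 at 1 d of sulindac. Its controls spanned 5.37 to 8.93 with a median of 7.74, so every treated array lay more than 4 log2 units above every control. The change of 5.61 ± 0.33 was a 48.8-fold rise (adjusted p 1.12e-13), the largest rise of any gene with sulindac, and within single hybridization days it was 4.3 to 6.0. With tenidap Cyp1a1 read 9.22, 10.13 and 10.74 at 0.67 d and 9.61, 10.19 and 11.63 at 1 d, and 4 of the 6 arrays were above all controls (4.94 to 9.79). That change was 2.75 ± 0.52, or 6.75-fold (adjusted p 0.000419), and it too was the largest rise with that drug. With nimesulide the mean over both times changed by 0.01 ± 0.39 (adjusted p 0.985), and the 2 times went in opposite directions.

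The other AhR targets varied by drug. Tiparp, the AhR-induced ADP-ribosyltransferase that feeds back on the receptor, rose with all 3 drugs, by 0.66 ± 0.12 with sulindac, 0.88 ± 0.10 with tenidap and 1.19 ± 0.10 with nimesulide, and all 6 arrays exceeded all controls with tenidap and with nimesulide. The sulindac call ended without replicate 2 at 0.67 d (0.55). Nqo1, the quinone reductase that AhR shares with NRF2, read 12.05 to 12.65 with sulindac against 8.78 to 11.31 on its controls, a rise of 1.59 ± 0.23. It changed by 0.12 ± 0.15 with tenidap and -0.51 ± 0.11 with nimesulide, neither called. Cyp1a2, a P450 that metabolizes caffeine and arylamines, rose by 0.89 ± 0.19 with sulindac and fell by 0.81 ± 0.15 with nimesulide. The sulindac rise was not called with hybridization day as a block (0.62), nor was the fall with nimesulide once the macrophage marker level was a covariate (-0.54). Cyp1b1 rose by 0.70 ± 0.08 with tenidap and 0.66 ± 0.11 with nimesulide, the latter not called with hybridization day as a block (0.55). Without the sulindac arrays hybridized on days that held none of its controls, or against the earlier control set alone, 2 of the 7 targets were called higher with sulindac.

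**Figure D2:**
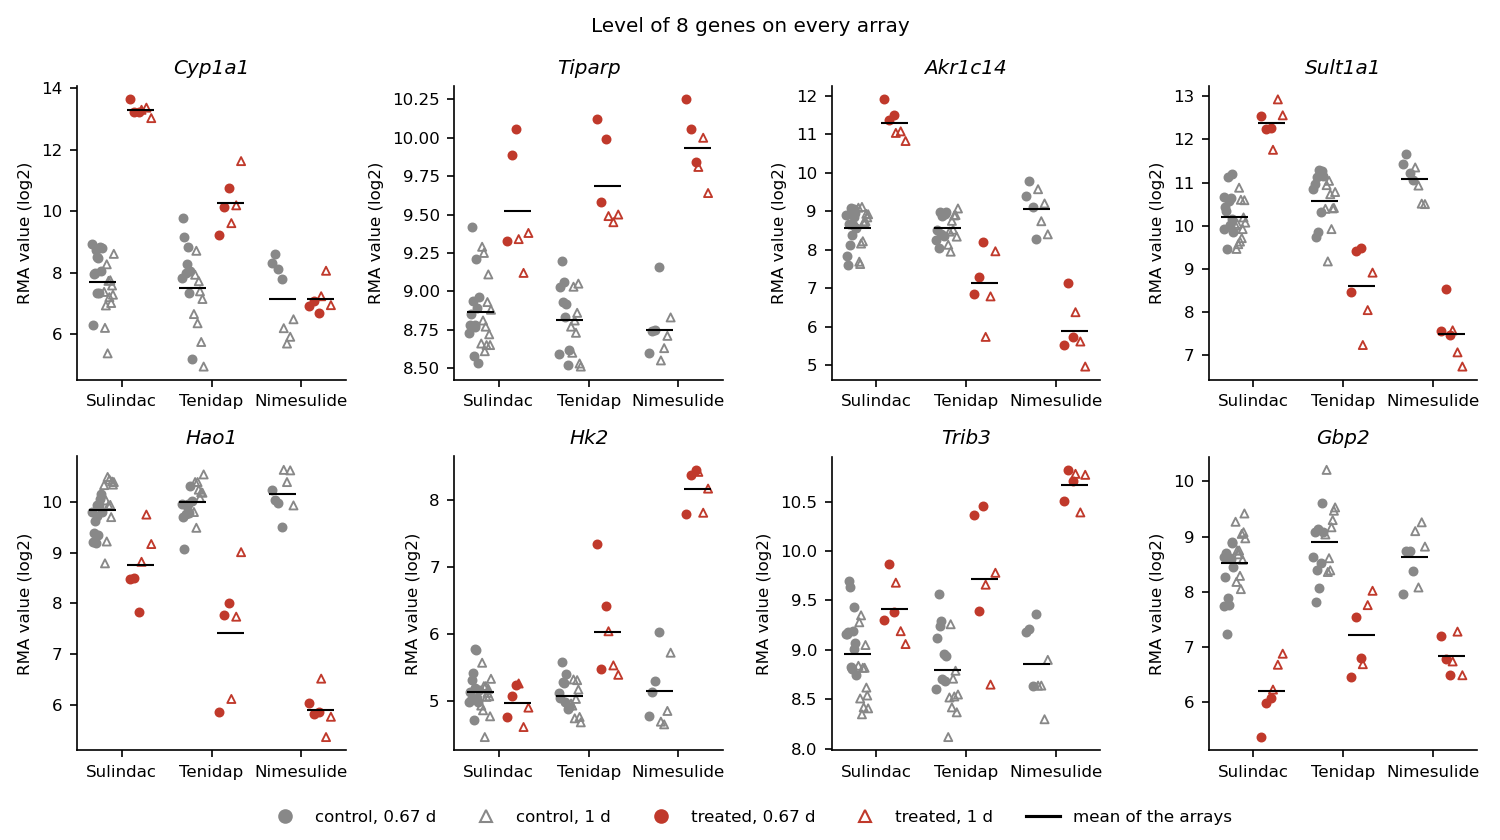
RMA value (log2) of 8 genes on each control (grey) and treated (red) array of each drug, circles for 0.67 d and triangles for 1 d, with the mean of the arrays as a line. Cyp1a1 sits at 13.03 to 13.64 on the sulindac arrays, Akr1c14 and Sult1a1 lie above their controls with sulindac and mostly below them with tenidap and nimesulide, and Gbp2 is low with all 3 drugs.

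Promoters of the AhR list were read from RefSeq (GRCr8, 250 bases before to 50 after the gene's start), where 5 of the 7 measured members had an entry. The core of the AhR response element, GCGTG on either strand, was in 4 of these 5 and in 29.7% of all 33469 promoters. It was also in 19 of 28 promoters of the ATF4 targets described further on and in 7 of the 10 with an entry among the genes higher with all 3 drugs. A match to such a short run is a description and not a bound site. The stretches that hold it in Tiparp and Nqo1 are shown because Tiparp was called with all 3 drugs and Nqo1 with sulindac, with the core in capitals read 5′ to 3′ on the gene's strand. They lie at chr2:152063588-152063687 (plus strand) and chr19:52220268-52220367 (minus strand).
Tiparp: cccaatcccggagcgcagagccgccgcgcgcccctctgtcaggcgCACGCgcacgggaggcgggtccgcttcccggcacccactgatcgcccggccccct
Nqo1: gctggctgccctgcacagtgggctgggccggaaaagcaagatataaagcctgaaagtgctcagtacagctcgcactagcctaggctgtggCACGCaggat

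The response to sulindac differed with exposure time in 1 gene, Ppara, which encodes the fatty acid receptor of the liver that drives fat oxidation. Ppara read 7.72, 7.39 and 7.93 at 0.67 d and 6.13, 5.92 and 6.67 at 1 d of sulindac, against 5.17 to 5.74 on the 24 controls, so all treated arrays exceeded all controls at both times. Its rise was 2.25 at 0.67 d and 0.71 at 1 d, a difference of -1.54 ± 0.18 (adjusted p 3.50e-05, interaction of treatment with time). Within hybridization days the rise was 2.14 and 1.94 at 0.67 d and 0.45 and 1.13 at 1 d. Neither tenidap (0.00 ± 0.12) nor nimesulide (-0.02 ± 0.10) gave a called change of Ppara. With tenidap and nimesulide 0 genes were called for a time difference by limma, and 0 by the same linear model without moderation. The interaction term of limma had an unadjusted p under 0.05 in 544 genes (3.83%) with tenidap and 1521 (10.7%) with nimesulide. With sulindac 826 genes (5.81%) were under it. Chance alone gives a share of about 0.05. The number called with tenidap was 10 without replicate 1b at 0.67 d. It was 1 with nimesulide once each array was centred on its median, and 3 with sulindac without replicate 1b at 1 d.

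Cyp1a1 with nimesulide went in opposite directions at the 2 times. At 0.67 d the treated arrays read 6.91, 7.07 and 6.69, below all 4 controls (7.79 to 8.6). At 1 d they read 7.23, 8.06 and 6.94, above all 4 controls (5.69 to 6.48). The change was -1.31 at 0.67 d and 1.34 at 1 d, a difference of 2.65 with an adjusted p of 0.0290, which misses the bound used here. The controls moved more between the times than the treated arrays did. Within hybridization days the change was -1.21, -1.38 and -1.10 at 0.67 d and 0.46 on the single shared day at 1 d.

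**Figure D3:**
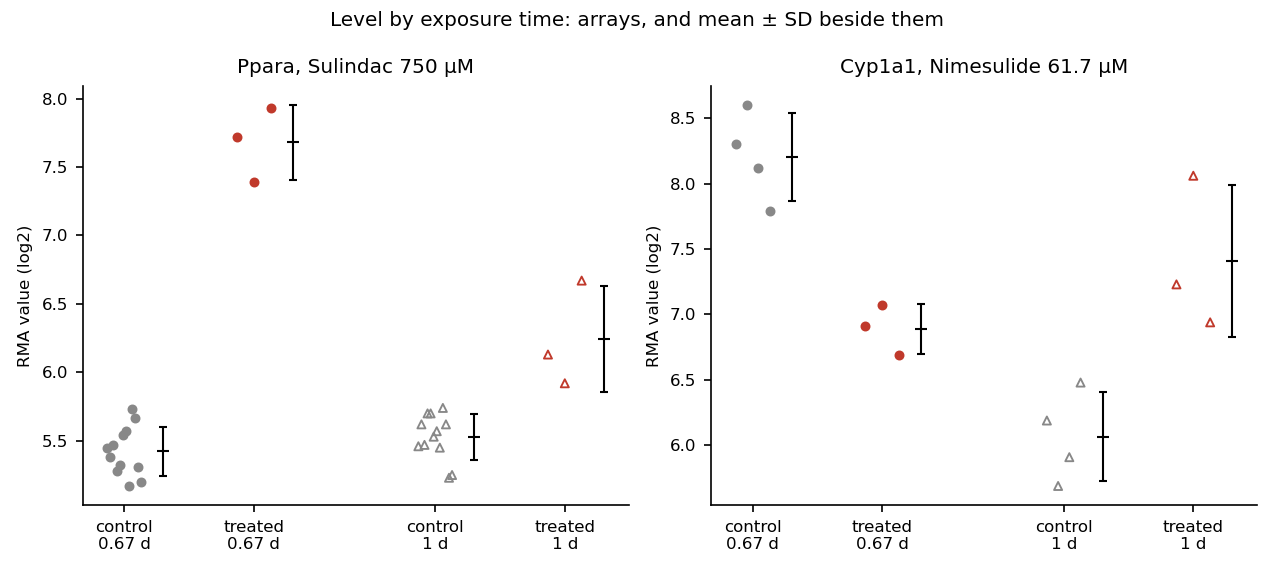
RMA value (log2) of Ppara with sulindac (left) and of Cyp1a1 with nimesulide (right) on each control (grey) and treated (red) array at 0.67 d and 1 d, with mean ± SD beside the points. Ppara rose by 2.25 at 0.67 d and 0.71 at 1 d, and Cyp1a1 lay below its controls at 0.67 d and above them at 1 d.

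Sulindac raised genes of hepatocyte metabolism. Of 27 genes for bile acid synthesis and transport 8 were higher and 0 lower, of 25 genes for gluconeogenesis and amino acid breakdown 10 were higher and 1 lower, of 22 for fatty acid synthesis 8 were higher, of 20 for cholesterol synthesis 6 were higher and of 27 for conjugation 5 were higher. The median changes of these lists were 0.34, 0.41, 0.28, 0.53 and 0.03, beside 0.02 over all genes. Against the earlier control set alone the higher counts of the bile acid, gluconeogenesis and conjugation lists were 5, 6 and 2. The conjugation count was 3 against the later set or with the macrophage marker level as a covariate, and 2 on shared hybridization days with the day as a block. The cholesterol count was 10 with each array centred on its median. The mean of the hepatocyte markers was higher too, but their median change was 0.04, with 4 of 13 called higher and 9 not called. Of the called markers, Tat and Cps1 are also members of the gluconeogenesis list. The part of the marker mean in these counts was not tested. Akr1c14, the 3-alpha-hydroxysteroid dehydrogenase that reduces bile acid precursors and steroids, read 11.9, 11.37 and 11.5 at 0.67 d and 11.03, 11.07 and 10.82 at 1 d, above all controls (7.6 to 9.11), a change of 2.72 ± 0.20. Sult1a1, which puts sulfate on phenols, rose by 2.17 ± 0.20 on all 6 arrays (11.76 to 12.93, controls 9.45 to 11.2). Abcc2, the canalicular pump for conjugates and bilirubin, rose by 1.56 ± 0.12. Cyp8b1 and Cyp27a1, which hydroxylate sterols on the way to bile acids, rose by 0.91 ± 0.24 and 0.61 ± 0.08. Lpin1, a phosphatidate phosphatase of triglyceride synthesis, rose by 1.79 ± 0.15, and Elovl6, a fatty acid elongase, by 1.57 ± 0.17. Acat2 and Lss of the cholesterol pathway rose by 1.16 ± 0.13 and 1.08 ± 0.16.

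Amino acid enzymes and 2 hepatocyte regulators moved the same way with sulindac. Tat, the tyrosine aminotransferase induced by glucocorticoids, read 12.04, 11.07, 11.33, 10.68, 11.34 and 10.82 against 8.84 to 9.69 on the controls, a rise of 1.98 ± 0.12. Tdo2, which opens the tryptophan ring, rose by 1.85 ± 0.17, and Cps1, the first enzyme of the urea cycle, by 1.18 ± 0.11. Hnf4a, the nuclear receptor that maintains hepatocyte identity, rose by 1.08 ± 0.07, and Il6r, the receptor for interleukin-6, by 2.17 ± 0.17. Fkbp5, a chaperone of the glucocorticoid receptor and one of its strongest targets, rose by 2.00 ± 0.17 on all 6 arrays. Of 26 glucocorticoid targets, a list put together after the values were seen, 11 were higher and 2 lower with sulindac, with a median of 0.46. The same list had 5 higher and 0 lower with tenidap, and 5 higher and 3 lower with nimesulide, with medians of -0.01 and 0.03. The shares over all genes were 2.26% higher and 2.75% lower with sulindac. They were 1.86% and 3.14% with tenidap, and 7.34% and 9.76% with nimesulide. Pck1, which starts gluconeogenesis and is a glucocorticoid target too, fell by 1.18 ± 0.29 with sulindac, a call lost without replicate 1a at 1 d (-1.07).

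Sulindac also raised 5 of 20 endoplasmic reticulum chaperone genes, and 3 against the earlier control set alone or without the arrays hybridized on days without its controls. Edem1, which delivers misfolded glycoproteins to degradation, rose by 2.03 ± 0.14 on all 6 arrays, and Herpud1, of the same disposal route, by 1.08 ± 0.13. Hsp90b1, the chaperone GRP94, rose by 0.59 ± 0.12. Tenidap and nimesulide each had 1 member of that list called, Dnajb9, which was higher. The shares higher over all genes were 2.26%, 1.86% and 7.34% with sulindac, tenidap and nimesulide. The nimesulide count did not exceed that share. The list's median change was 0.28, -0.06 and -0.03.

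Actin and matrix genes were lowered by sulindac. Of 32 targets of serum response factor, TGF-beta and YAP, 8 were lower and 1 higher with sulindac, against 1 lower with tenidap and 7 lower and 2 higher with nimesulide. Their median changes were -0.34, 0.02 and -0.02 with sulindac, tenidap and nimesulide. The shares lower over all genes were 2.75%, 3.14% and 9.76%, which the tenidap count did not exceed. The sulindac count of lower members was 5 against the earlier and 10 against the later control set alone, and 4 on shared hybridization days with the day as a block. Tagln, an actin-binding protein of smooth muscle and myofibroblasts, read 7.54, 6.94 and 7.67 at 0.67 d and 6.71, 9.61 and 10.21 at 1 d, against 7.63 to 12.44 on the controls. It fell by 2.61 ± 0.49, and the call was lost against the earlier control set (-1.98) and with hybridization day as a block (-1.86). Ccl2, the chemokine that draws monocytes, fell by 2.42 ± 0.58, with 4 of 6 arrays below all controls, and that call was lost against the earlier control set (-1.26), with hybridization day as a block (-1.11) and without replicate 1a at 0.67 d (-2.21). Without the controls that stood apart in macrophage markers Ccl2 changed by -2.10. Lcp1, the plastin of white blood cells, fell by 1.92 ± 0.21 on all 6 arrays, and by 1.85 without those controls. Vim, the intermediate filament protein of mesenchymal cells, was higher by 2.18 ± 0.36, with 4 of 6 arrays above all controls.

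**Figure D4:**
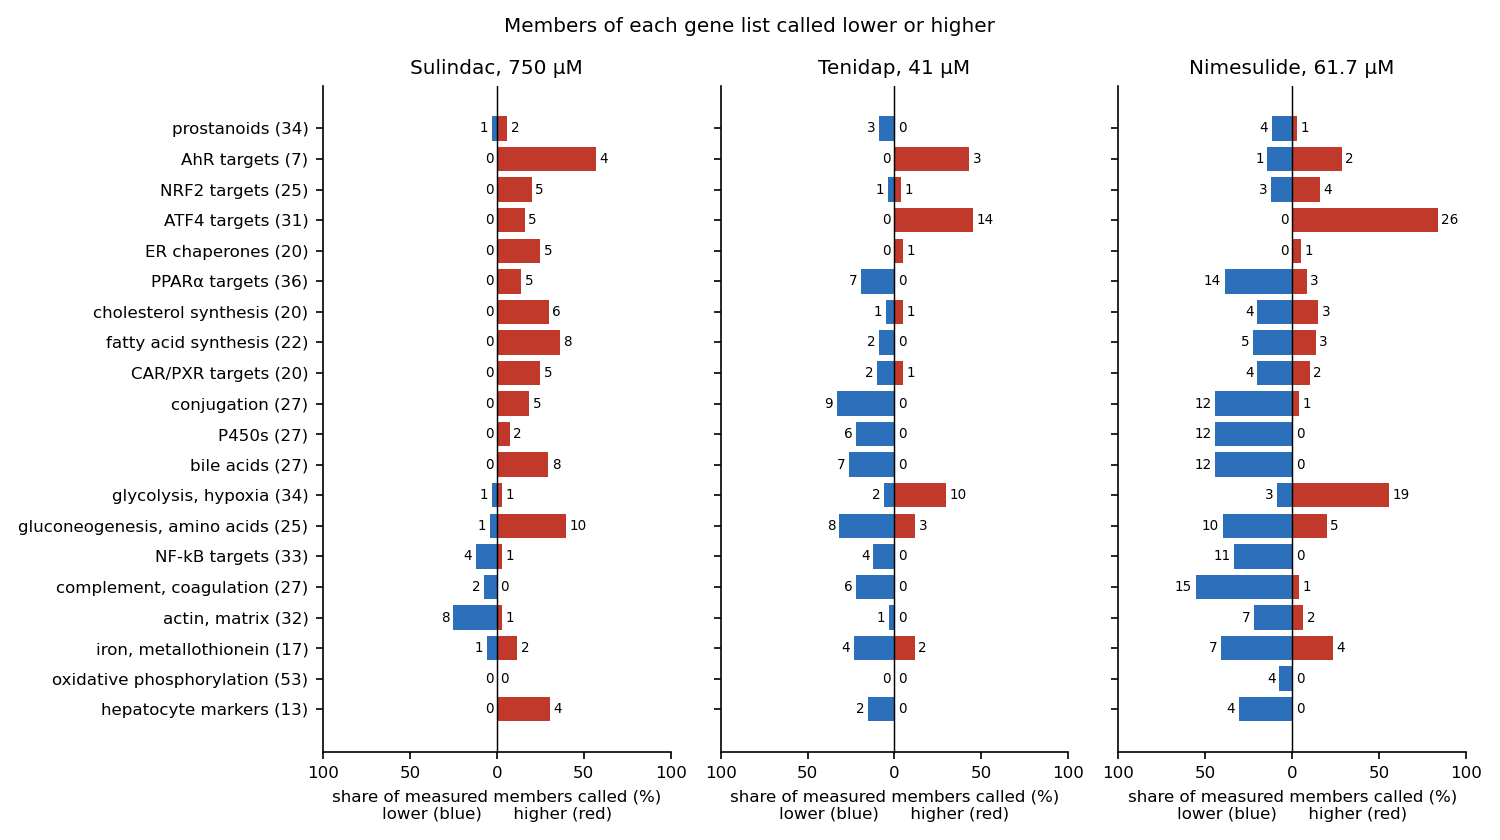
Share of the measured members of each gene list (number in brackets) called higher (red, to the right) or lower (blue, to the left) with each drug, with the number of genes at the end of each bar. The lists of bile acids and conjugation have only higher calls with sulindac and mostly or only lower calls with tenidap and nimesulide. Of the 27 P450s 2 are higher and 0 lower with sulindac (median change 0.00), and 6 and 12 are lower with tenidap and nimesulide. ATF4 targets have 5, 14 and 26 higher calls.

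Tenidap lowered metabolic genes of the hepatocyte. Of the 27 bile acid genes 7 were lower and 0 higher, of 27 conjugation genes 9 were lower, of 27 P450s and flavin monooxygenases 6 were lower, of 36 PPAR-alpha targets 7 were lower and of 27 complement and coagulation genes 6 were lower, with medians of -0.32, -0.31, -0.27, -0.35 and -0.34 beside 0.01 over all genes. On shared hybridization days with the day as a block 3 bile acid and 5 conjugation genes were lower. The P450 count was 3 against either control set alone, and the complement count was 3 against the later set. The mean of the hepatocyte markers was lower with tenidap and with nimesulide, and its part in the counts of both drugs was not tested. Hao1, the peroxisomal glycolate oxidase, read 5.86, 7.77 and 8.01 at 0.67 d and 6.12, 7.74 and 9.01 at 1 d, all below the lowest of 18 controls (9.07), a fall of 2.57 ± 0.28 on the log2 scale (adjusted p 1.67e-06). The array named 1a was the lowest at both times. The letters only tell apart arrays with the same number, and these arrays had different hybridization and extraction days. Baat, which joins bile acids to glycine and taurine, fell by 2.28 ± 0.37, and Slc10a2, the sodium-dependent bile acid transporter of gut and bile duct, by 2.27 ± 0.28. Sult1a1 fell by 1.98 ± 0.27 and Ugt2b10, a glucuronosyltransferase, by 1.82 ± 0.23. Vnn1, the pantetheinase and PPAR-alpha target, fell by 1.64 ± 0.27, and Gys2, the liver glycogen synthase, by 1.92 ± 0.23 on all 6 arrays. F5, coagulation factor V, fell by 1.44 ± 0.22.

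The genes that rose with tenidap included stress and glucose genes. Slc16a6, a monocarboxylate transporter that exports ketone bodies from the liver, rose by 2.03 ± 0.20 on all 6 arrays, and Rragd, a GTPase of nutrient sensing at the lysosome, by 1.75 ± 0.21. Irs2, the insulin receptor substrate of the liver, rose by 1.47 ± 0.20, and Pck1 by 1.47 ± 0.28. Both belong to the gluconeogenesis and amino acid list, where 3 of 25 were higher and 8 lower with tenidap. That list's median was -0.10, and 1.86% of all genes were higher and 3.14% lower. Of 34 glycolysis and hypoxia genes 10 were higher and 2 lower, with 6 higher on shared hybridization days with the day as a block. The higher genes included Adm, the vasodilator adrenomedullin (1.39 ± 0.19), Pfkfb3, which makes the activator of glycolysis fructose 2,6-bisphosphate (1.31 ± 0.19), and Slc2a1, the basal glucose transporter (0.87 ± 0.11). Smox, the spermine oxidase, rose by 1.26 ± 0.19 and Abcb1a, the P-glycoprotein drug pump, by 1.18 ± 0.23.

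Nimesulide lowered many of the same metabolic lists. Hao1 read 6.04, 5.83, 5.86, 6.52, 5.37 and 5.77 against 9.5 to 10.63 on the controls, so the groups did not overlap, and it fell by 4.26 ± 0.18 (adjusted p 5.47e-10). Baat fell by 4.04 ± 0.25, Sult1a1 by 3.60 ± 0.19, Mbl2, the mannose-binding lectin that starts complement, by 3.54 ± 0.13, and Gna14, a G protein alpha subunit, by 4.10 ± 0.19. Of the bile acid genes 12 of 27 were lower, of the conjugation genes 12, of the P450s 12, of the complement and coagulation genes 15 of 27 and of the PPAR-alpha targets 14 of 36, with 0, 1, 0, 1 and 3 higher. Among the 25 gluconeogenesis and amino acid genes 10 were lower and 5 higher, with a median of -0.07. The shares over all genes were 9.76% lower and 7.34% higher. Nr1h4, the bile acid receptor FXR, fell by 1.23 ± 0.13 and Slco1b2, the uptake carrier for bile acids and drugs, by 2.31 ± 0.14. Cpt1a and Acadm, which bring fatty acids into mitochondria and start their oxidation, fell by 1.19 ± 0.14 and 1.25 ± 0.10. Of the 13 hepatocyte markers 4 were lower, with Cps1 at -2.20 ± 0.11, Apob at -1.77 ± 0.12 and Hnf4a at -1.63 ± 0.12.

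Glycolysis and hypoxia genes rose with nimesulide, 19 of 34, with 3 lower and a median of 0.73. Hk2, the hexokinase of proliferating cells and muscle, read 7.79, 8.38 and 8.45 at 0.67 d and 8.42, 7.81 and 8.17 at 1 d, against 4.65 to 6.03 on the controls, a rise of 3.03 ± 0.21 or 8.17-fold. Eno2, the neuronal enolase, rose by 2.92 ± 0.29, Hilpda, the hypoxia-inducible lipid droplet protein, by 2.63 ± 0.15, Pfkfb3 by 2.63 ± 0.30 and Vegfa, the vascular growth factor, by 1.58 ± 0.17. Pim1, a survival kinase, rose from 4.9 to 5.62 on the controls to 7.46 to 9.47 on the treated arrays, a change of 3.39 ± 0.22. Pklr and Slc2a2, the liver forms of pyruvate kinase and of the glucose transporter, were among the 3 lower members. Of 53 nuclear genes of oxidative phosphorylation 4 were lower and 0 higher, where 9.76% of all genes were lower, among them Ndufs3 of complex I (-0.84 ± 0.06) and Atp5f1a of the ATP synthase (-0.81 ± 0.07), and the list's median was -0.35. The same median was -0.16 with tenidap and 0.06 with sulindac, with no member called. With nimesulide the macrophage markers had a median change of 1.05. Without the controls that stood apart in these markers 16 glycolysis and hypoxia genes were higher, and with the marker level as a covariate 17.

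Targets of ATF4, the transcription factor that amino acid shortage and other stresses raise, were called higher in 5, 14 and 26 of 31 with sulindac, tenidap and nimesulide, and none was lower. The medians were 0.21, 0.63 and 1.02. Trib3, a pseudokinase that restrains AKT and ATF4, read 10.51, 10.82, 10.71, 10.78, 10.39 and 10.77 with nimesulide against 8.3 to 9.36 on its controls, a rise of 1.80 ± 0.13. It rose by 0.91 ± 0.17 with tenidap and changed by 0.46 ± 0.14 with sulindac (adjusted p 0.0130, not called). Atf4 itself rose by 1.01 ± 0.06 with nimesulide and 0.62 ± 0.10 with tenidap, and changed by 0.31 ± 0.07 with sulindac. Chac1, which degrades glutathione, rose with all 3, by 0.82 ± 0.12, 0.72 ± 0.15 and 1.71 ± 0.17, and its tenidap call was lost with hybridization day as a block (0.62). Slc7a11, the cystine importer shared with NRF2, rose by 2.49 ± 0.35 with nimesulide, and Hmox1, the haem oxygenase of the NRF2 list, by 1.86 ± 0.22. The tenidap count was 8 without the arrays hybridized on days without its controls or against either control set alone, and 6 on shared hybridization days with the day as a block.

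Gdf15, a stress cytokine also known as NSAID-activated gene, belongs to that list. It read 8.13, 8.84 and 8.58 at 0.67 d and 8.74, 6.99 and 7.82 at 1 d of nimesulide, against 6.58 to 7.26 on the controls, and 5 of the 6 arrays were above all controls, a rise of 1.18 ± 0.24 (adjusted p 0.000772). With tenidap it rose by 1.01 ± 0.20, but only 2 of 6 arrays exceeded all controls, the changes within hybridization days ran from -0.22 to 1.83, and the call was lost with hybridization day as a block (0.75). With sulindac Gdf15 changed by 0.10 ± 0.19, with a 95% interval of -0.30 to 0.49. Sat1, the polyamine acetyltransferase, changed by -0.21 ± 0.07, 0.18 ± 0.07 and 0.24 ± 0.07 with sulindac, tenidap and nimesulide, none called. Cyp4a1, a PPAR-alpha target, changed by 0.10 ± 0.35, -0.08 ± 0.29 and 0.12 ± 0.21, and Cyp3a23-3a1, the PXR target, by -0.13 ± 0.29, 0.21 ± 0.24 and 0.44 ± 0.19, none called. Other PPAR-alpha targets were called with sulindac, 5 of 36 higher and 0 lower, where 2.26% of all genes were higher. The median change of that list with sulindac was 0.26, beside 0.02 over all genes. Pdk4, which shuts off pyruvate oxidation, rose by 1.48 ± 0.23 with nimesulide and changed by 0.83 ± 0.33 and 0.47 ± 0.36 with sulindac and tenidap.

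The composite site that ATF4 binds, searched as TGATGNAAN on both strands, was in 7 of the 28 promoters of the ATF4 list that had an entry and in 3.97% of all promoters. The stretches of Chac1, called with all 3 drugs, and of Trib3 are shown with the match in capitals, at chr3:126795918-126796017 (plus strand) and chr3:161275534-161275633 (minus strand).
Chac1: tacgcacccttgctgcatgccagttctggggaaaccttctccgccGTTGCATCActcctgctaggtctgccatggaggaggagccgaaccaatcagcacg
Trib3: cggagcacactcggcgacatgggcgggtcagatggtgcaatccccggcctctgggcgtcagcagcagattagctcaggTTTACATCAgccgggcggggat

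The 3 comparisons share no arrays. Tenidap and nimesulide had 666 calls in the same direction, 247 higher and 419 lower, and 0 in opposite directions. These were 93.7% of the tenidap calls and 27.4% of the nimesulide calls. Across the 14218 genes, which are not independent replicates, the changes with tenidap and nimesulide had a Pearson correlation of 0.878. Sulindac shared 79 calls in direction with tenidap (11.1% of the calls of each) and 68 were opposite, and it shared 179 with nimesulide (25.1% of its own and 7.37% of the nimesulide calls) while 170 were opposite. The correlations of sulindac with tenidap and nimesulide were 0.0546 and 0.0065. Akr1c14 and Sult1a1 were examples of opposite calls. Akr1c14 fell by 1.44 ± 0.23 with tenidap and 3.17 ± 0.30 with nimesulide, with 4 and 6 of 6 arrays below all controls, where sulindac raised it by 2.72. The doses differ, so the sizes were not compared.

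**Figure D5:**
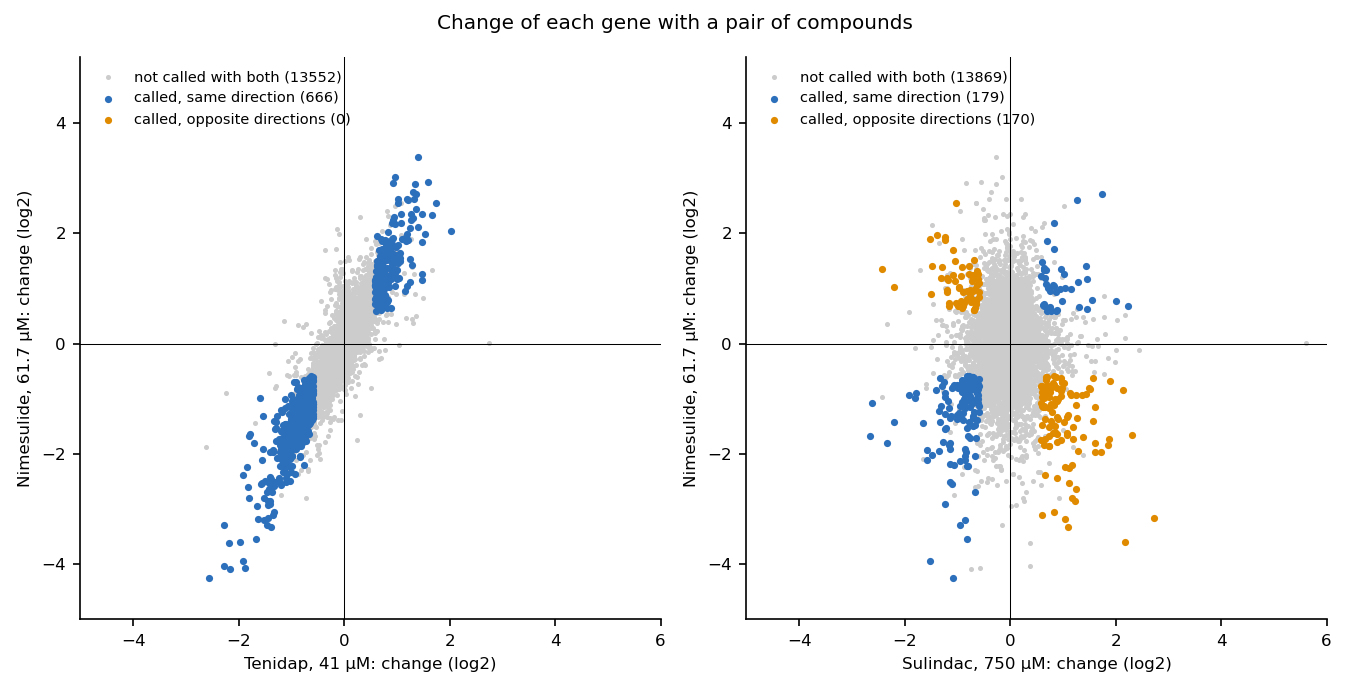
Log2 change of each of 14218 genes with nimesulide (vertical axis) against tenidap (left) and sulindac (right). Genes called with both drugs are blue where the directions match (666 and 179) and orange where they oppose (0 and 170), and all others are grey.

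With all 3 drugs 12 genes were higher and 56 lower. Leaving out 1 array of 1 drug gave 9 to 18 higher and 42 to 69 lower, with the fewest, 9 and 42, without replicate 1a of sulindac at 1 d. With sulindac set against its earlier controls alone 5 were higher and 23 lower, and without its treated arrays of hybridization days without controls 7 and 35. With tenidap set against its later controls alone 9 were higher and 32 lower, and on its shared hybridization days with the day as a block 6 and 40. Besides Chac1 and Tiparp, the higher genes included Igfbp1, the liver-made binder of insulin-like growth factors, which read 11.95 to 12.9 with sulindac, 11.46 to 12.83 with tenidap and 12.4 to 12.95 with nimesulide. It rose by 1.74 ± 0.31, 1.36 ± 0.27 and 2.71 ± 0.33, and 6, 5 and 6 of the 6 arrays exceeded all controls. Mt2A, a metallothionein that binds zinc and copper, rose by 1.26 ± 0.20, 1.22 ± 0.23 and 2.60 ± 0.35. Gde1, a glycerophosphodiesterase, and Slc25a33, a mitochondrial pyrimidine carrier, were higher with all 3 and belong to 10 genes raised by most compounds of these same arrays, a list chosen on these data. Of those 10 genes 2, 8 and 10 were higher with sulindac, tenidap and nimesulide. Of the 10 genes lowered by most compounds, chosen the same way, 6, 9 and 10 were lower. Car14, Hao1, Kif12, Mbl2 and Nrep of that list were lower with all 3 drugs.

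Among the 56 were interferon-stimulated genes. Gbp2, a guanylate-binding protein of cell-autonomous defence, read 5.37, 5.99 and 6.08 at 0.67 d and 6.23, 6.68 and 6.88 at 1 d of sulindac, below all controls (7.24 to 9.42). It fell by 2.33 ± 0.20 with sulindac, 1.70 ± 0.25 with tenidap and 1.80 ± 0.20 with nimesulide, with 6, 5 and 6 of the 6 arrays below all controls. Igtp and Irgm, GTPases of the same defence, fell by 1.23 ± 0.15, 1.10 ± 0.17 and 1.54 ± 0.17, and by 1.00 ± 0.14, 0.95 ± 0.13 and 1.37 ± 0.17. Cxcl11, a chemokine for T cells, changed by -1.10 ± 0.13, -1.58 ± 0.24 and -2.54 ± 0.18, all called lower. In a list of 50 interferon-stimulated genes put together after these values were seen, 17 were lower with sulindac, 22 with tenidap and 19 with nimesulide, with 0, 0 and 2 higher. The 2 higher genes were Rsad2 (viperin, 1.83 ± 0.21) and Mx1 (0.91 ± 0.20), and Mx1 was not called once the macrophage marker level was a covariate (0.52). Without the controls that stood apart in macrophage markers 16, 22 and 22 members were lower, and against the earlier control set alone 10, 12 and 15. Ifit2, an interferon-induced RNA-binding protein, fell by 0.63 ± 0.11, 0.62 ± 0.15 and 0.99 ± 0.11. With tenidap it missed the bounds without replicate 1a or 2 at 0.67 d (-0.54 and -0.59), and with sulindac without replicate 2 at 0.67 d (-0.57). Gbp4 fell by 1.81 ± 0.29 with sulindac and 1.6 ± 0.32 with tenidap, and its change of -0.99 ± 0.28 with nimesulide was not called when any of 12 of the 14 arrays was left out (-1.06 to -0.85).

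The interferon-stimulated response element, searched as GAAA, any 2 bases and GAAA on both strands, was in 26 of the 43 promoters of that list with an entry, in 7 of the 47 with an entry among the 56 genes lower with all 3 drugs, and in 3.92% of all promoters. The stretches of the 5 guanylate-binding and immunity-related GTPases called lower with all 3 drugs are shown with the match in capitals. Gbp2, Gbp4 and Gbp7 lie at chr2:234005627-234005726, chr2:233978386-233978485 and chr2:233948789-233948888 (plus strand), Irgm at chr10:33742579-33742678 (minus strand) and Igtp at chr10:42874899-42874998 (plus strand).
Gbp2: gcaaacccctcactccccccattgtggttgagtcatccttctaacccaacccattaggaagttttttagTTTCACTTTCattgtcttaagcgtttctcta
Gbp4: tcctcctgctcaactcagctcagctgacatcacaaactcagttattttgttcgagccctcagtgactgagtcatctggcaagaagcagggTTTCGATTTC
Gbp7: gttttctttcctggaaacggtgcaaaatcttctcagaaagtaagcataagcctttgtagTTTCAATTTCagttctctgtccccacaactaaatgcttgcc
Irgm: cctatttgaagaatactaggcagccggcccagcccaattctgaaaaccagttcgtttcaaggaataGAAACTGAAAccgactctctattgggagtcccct
Igtp: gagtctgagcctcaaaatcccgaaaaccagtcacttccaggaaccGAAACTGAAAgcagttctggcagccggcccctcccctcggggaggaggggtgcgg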

How the data were processed

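Poly(A) RNA of cultured rat hepatocytes was hybridized to Affymetrix rat genome arrays. The authors deposited log2 values from RMA for 31099 probe sets, and these were used as they stand. The platform annotation gave a single symbol for 20832 of them, more than 1 for 436 and no symbol for 9831, and 20764 of the single symbols were taken from RefSeq through the gene ID. The probe set with the highest mean stood for a gene, leaving 14218 genes, of which 4526 had several probe sets. Each drug was fitted alone with limma 3.58.1 (R 4.3.3) on treatment and exposure time, with their interaction for time differences and Benjamini-Hochberg adjustment over all genes, by code tested on simulated data. Array medians lay between 5.50 and 5.624, 0 pairs of arrays were identical, and the number of arrays limits the precision. The 18 treated and 50 control arrays fell on 17 hybridization and 11 extraction days, partly shared between groups. Promoters came from RefSeq (GRCr8), and the build behind the probe sets is not given in the sources used here.

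The genes named were, for each drug, the 10 largest called changes each way, the 3 largest called of each list (all called of the prostanoid and AhR lists), 15 genes called with all 3, the largest time differences, the genes raised or lowered by most compounds, and Ptgs1, Ptgs2, Gdf15, Sat1, Cyp1a1, Cyp4a1, Pdk4 and Cyp3a23-3a1 in any case. Not every gene the rule picked is reported here. Acadm, Atf4, Cpt1a, Cyp27a1, Cyp8b1, Fkbp5, Gbp4, Hsp90b1, Ifit2, Il1r1, Irgm, Mx1, Nfkbia, Nr1h4, Pklr, Rsad2, Slc2a1, Slc2a2, Traf1 and Vegfa were named after their values were seen. The members and lists were chosen with earlier results of these data known. The alternatives covered the test, the fold bound, each time alone, the controls, the scaling, the choice of probe sets, low values, hybridization, extraction and replicate blocks, the dated code of the control titles as a random effect (each treated array its own level, chosen after seeing the data), and each array left out.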

Additional observations from a re-analysis of the deposited data

Results flagged for a closer look

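The mean of the 10 macrophage markers was 6.16 on replicate 3b of the tenidap controls at 0.67 d and 6.23 on replicate 3a at 1 d, each far from the other controls of its group by Dixon's ratio. Of 4 groups tested this way both groups of tenidap controls were picked out, and chance picks about 1 in 20 groups. The titles of the 2 arrays share 1 dated code, so they are not independent. Without both arrays 673 genes were called with tenidap, against 711.

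The response of Ppara to sulindac differed between exposure times by -1.54 on the log2 scale (1 d minus 0.67 d), past the bounds by the interaction term of limma (adjusted p 3.50e-05). The response of Cyp1a1 to nimesulide differed by 2.65, with all treated arrays below all controls at 0.67 d and above all controls at 1 d, and the interaction term had an adjusted p of 0.0290, which misses the bound of 0.01.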

How the results depend on the processing

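Of the named genes' changes 0 reversed a called direction under the alternatives run. Within single shared hybridization days, 149 of 154 called named genes kept their direction on every day with sulindac. The counts were 145 of 160 with tenidap and 208 of 210 with nimesulide. Chac1, Gdf15 and Slco2a1 were among the tenidap genes that did not. Calls numbered 712 with sulindac, 711 with tenidap and 2430 with nimesulide. With a bound of 2-fold they numbered 220, 190 and 924. At 1 d alone 445 genes were called with sulindac and 53 with tenidap, at 0.67 d alone 254 with tenidap, against the later control set alone 452 with tenidap, and on shared hybridization days with the day as a block 439 with tenidap, the last chosen after seeing the data. Leaving out each array in turn gave 644 to 759 calls with sulindac, 525 (without replicate 1a at 0.67 d) to 906 (without replicate 1b at 1 d) with tenidap, and 2350 to 2508 with nimesulide. Genes whose response differed with time numbered 1 to 3 with sulindac, 0 to 10 with tenidap and 0 with nimesulide when each treated array was left out. With each array centred on its median 1 gene, Nr1d2, differed with time with nimesulide. The causes were not tested. Among the other alternatives, 529, 627 and 219 of the values of named genes fell below a bound and 73, 63 and 38 passed it (sulindac, tenidap, nimesulide), against 4624, 4533 and 4965 that kept their side. These values cover 262 genes for each drug, of which 154, 160 and 210 were called. Those that kept their side thus include genes that stayed uncalled.

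The replicate numbers were not taken to pair the samples. The controls of both times share dated codes, but not always under the same number, and the treated arrays carry none. With that code as a random effect 730, 714 and 2421 genes were called. Of the pairs of arrays with the same number in different groups, 27 of 49 (sulindac), 22 of 46 (tenidap) and 17 of 37 (nimesulide) had residuals correlated above 0.1. The mean correlation was 0.184, 0.182 and 0.07 for the same number and -0.035, -0.053 and -0.07 for different numbers. With the replicate number as a block 704, 687 and 2522 genes were called, and 2 genes, Manba and Ppara, differed with time with sulindac, 0 with tenidap and 0 with nimesulide.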

Other observations

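Of 33 NF-kB targets, a list of cytokines, chemokines, receptors and regulators, 11 were lower and 0 higher with nimesulide, 4 lower and 1 higher with sulindac, and 4 lower and 0 higher with tenidap. The 11 included Nfkbia and Traf1, which are regulators of the pathway, and the 1 higher gene was Il1r1, an interleukin-1 receptor. Of 17 genes of iron and metal handling 7 were lower and 4 higher with nimesulide, 4 and 2 with tenidap, and 1 and 2 with sulindac. Tfrc, the transferrin receptor, fell by 2.34 with nimesulide and 1.01 with tenidap, and Hjv, the co-receptor that raises hepcidin, fell by 3.19 and 1.63. Of 18 clock genes 6 were higher and 1 lower with nimesulide, 1 and 0 with tenidap, and 2 and 1 with sulindac. Of 22 p53 targets 7 were higher and 2 lower with nimesulide, 3 and 1 with tenidap, and 2 and 0 with sulindac. Tp53inp1, a p53-induced regulator of autophagy, was higher with all 3 drugs, by 2.19 with nimesulide. Over all genes 7.34% were higher and 9.76% lower with nimesulide, 1.86% and 3.14% with tenidap, and 2.26% and 2.75% with sulindac. The shares of p53 and of clock genes lower with nimesulide did not exceed that over all genes.

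The counts of the remaining lists are set beside the same shares over all genes. With sulindac, tenidap and nimesulide, 5, 1 and 4 of 25 NRF2 targets were higher and 0, 1 and 3 lower, and 5, 1 and 2 of 20 CAR and PXR targets were higher and 0, 2 and 4 lower. Of 13 heat shock genes 0, 1 and 1 were higher and 1, 0 and 2 lower, of 28 acute phase genes 2, 0 and 1 higher and 1, 2 and 5 lower, and of 14 polyamine genes 0, 2 and 2 higher and 2, 0 and 1 lower. Of 26 Wnt genes 1, 2 and 3 were higher and 2, 1 and 6 lower, of 28 cell cycle genes 1, 2 and 5 higher and 0, 0 and 1 lower, and of 16 BCL2 family genes 2, 1 and 4 higher and 0, 0 and 1 lower.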
